A study of Mus musculus with 32 samples.

Results

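Skeletal muscle contractile genes are the 37 genes that build, control or fuel the contractile apparatus of the muscle fibre, and they were followed here in 32 primary mouse melanomas. Each gene was found by its symbol in the mouse gene annotation, and all 37 matched 1 row each among the 50600 genes of the expression tables. They comprise 11 genes of the thick filament, 8 of the thin filament, 7 of the Z-disc and the elastic filament, 5 of calcium handling, 4 of energy metabolism and 2 myogenic transcription factors. This matching used no measured value, but the 37 genes were chosen with earlier results of these data known. Of the 37 genes 21 overlap another annotated gene, such as Tnnc2 with Ube2c, Ckm with A930016O22Rik and Acta1 with Gm20388. Reads of such pairs may have been dropped or split between them.

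The tumours were primary melanomas of mice on a C57BL/6J background, and all carried Tyr::NrasQ61K, an oncogenic Nras driven by the tyrosinase promoter, together with Cdkn2a-/+ and Cdh1F/F, a floxed E-cadherin gene. Ecad tumours carried no Cre (°/° in the labels). In ΔEcad tumours a Cre under the same tyrosinase promoter removes Cdh1 from cells of the melanocyte lineage, and the other cells of the tumour keep it. The labels write this last allele as Tyr::NRAS/°, whereas the study's methods describe Tyr::Cre, and the ΔEcad name was taken from the sample titles. There were 8 Ecad male, 8 Ecad female, 8 ΔEcad male and 8 ΔEcad female tumours, and the labels give no age, body site or mouse identity. Tumours were taken at a total burden of up to about 1 cm3. Levels are given in TPM, transcript abundances that are corrected for gene length and library depth, and tests were run on read counts.

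Total counts per tumour ranged from 24036333 to 63923086. Summed counts of Y-linked genes lay between 1459 and 8800 in the other 15 tumours labelled male, but were 0 in the tumour labelled ΔEcad male 2, and they were 0 to 4 in the tumours labelled female except ΔEcad female 1, with 92. Cdh1 ranged from 25 to 281.85 TPM in Ecad males and from 0.79 to 65.22 in ΔEcad males, and in females from 2.16 to 151.15 (Ecad) and from 0.17 to 143.25 (ΔEcad), so the genotypes overlapped. The tumour labelled ΔEcad male 7 had only 32 TPM over 10 melanocytic genes, against at least 5896 in each other tumour, and Ecad female 3 held 20305 TPM of salivary gland genes. The tests that involve these tumours are also given without them.

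In a muscle fibre, myosin of the thick filament pulls on actin of the thin filament within the sarcomere, the repeating unit that is bounded by Z-discs. Calcium released from the sarcoplasmic reticulum binds troponin and permits that pull, and pumps return it to store. Fast fibres and slow fibres use different genes for the same parts, and the heavy chains Myh4, Myh1 and Myh2 mark the fast IIB, IIX and IIA fibre types while Myh7 marks slow fibres. The panniculus carnosus, a thin sheet of striated muscle, lies directly under mouse skin.

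The promoters of 3 members are shown as examples. Myh1 and Myh4 are neighbouring heavy chain genes that led in different tumours. Ckm, the muscle creatine kinase, is one of the genes used to tell which tumours held muscle. Promoter content was not compared with the levels of the genes. Each sequence runs 5′ to 3′ from 250 bases before to 50 after the RefSeq start (GRCm38.p6). Capitals mark the E-box CANNTG, the motif bound by the MyoD family.
Myh1, chr11:67199852-67200151, plus strand: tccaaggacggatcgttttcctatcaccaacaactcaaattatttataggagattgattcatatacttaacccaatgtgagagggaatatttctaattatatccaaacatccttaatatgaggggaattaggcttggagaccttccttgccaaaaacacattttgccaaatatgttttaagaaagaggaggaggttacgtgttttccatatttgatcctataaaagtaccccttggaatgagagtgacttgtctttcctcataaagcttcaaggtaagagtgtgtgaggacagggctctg
Myh4, chr11:67237562-67237861, plus strand: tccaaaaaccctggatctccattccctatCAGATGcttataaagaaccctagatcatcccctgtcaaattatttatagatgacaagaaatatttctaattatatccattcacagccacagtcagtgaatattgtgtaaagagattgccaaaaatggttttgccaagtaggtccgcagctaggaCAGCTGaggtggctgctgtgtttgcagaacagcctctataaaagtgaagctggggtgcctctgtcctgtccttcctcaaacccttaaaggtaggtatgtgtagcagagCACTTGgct
Ckm, chr7:19410844-19411143, plus strand: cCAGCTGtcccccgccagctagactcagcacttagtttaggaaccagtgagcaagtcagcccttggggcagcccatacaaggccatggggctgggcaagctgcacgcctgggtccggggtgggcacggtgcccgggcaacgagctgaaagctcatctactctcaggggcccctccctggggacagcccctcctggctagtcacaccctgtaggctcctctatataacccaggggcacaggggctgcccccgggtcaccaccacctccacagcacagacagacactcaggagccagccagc

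RefSeq promoters were found for 29 of the 37 genes. The letters CANNTG, searched on both strands, were present in the promoters of 26 of these 29 genes and in 88.6% of their 35 promoters, against 72.3% of all 32851 promoters of the same length. CAGCTG, an E-box contained in that pattern, was present in 15 of the 29 genes and in 51.4% of their promoters, against 16.3% of all promoters. TATAAA was found in 8 of the 29 genes and in 22.9% of their promoters, against 13.6% of all promoters. The binding site of MEF2 was found in 4 genes and 11.4% of their promoters, against 3.2%. The CArG box of serum response factor was found in 3 genes and 8.6% of their promoters, against 1.6%. In the sequences above, Myh4 held 3 E-boxes of which 1 was CAGCTG, Ckm held 1, and Myh1 held none in this window.

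The summed level of the 37 genes differed by orders of magnitude between tumours. It was lowest in Ecad female 1 at 16.8 TPM and highest in ΔEcad female 7 at 39163 TPM, or 3.92% of all transcripts. The sums in Ecad male tumours had a lowest value of 767.9, a median of 5364 and a highest value of 29638 TPM. The corresponding values were 16.8, 61.6 and 7949 TPM in Ecad females. ΔEcad males had 22.8, 742 and 4505 TPM and ΔEcad females 30.6, 1768 and 39163 TPM. All 4 groups overlapped. Each female group was split, with 5 Ecad and 4 ΔEcad females at 73.7 TPM or less and the others at 1510.0 TPM or more. In bulk tumour RNA, fewer muscle fibres and less RNA per fibre cannot be told apart.

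**Figure D1:**
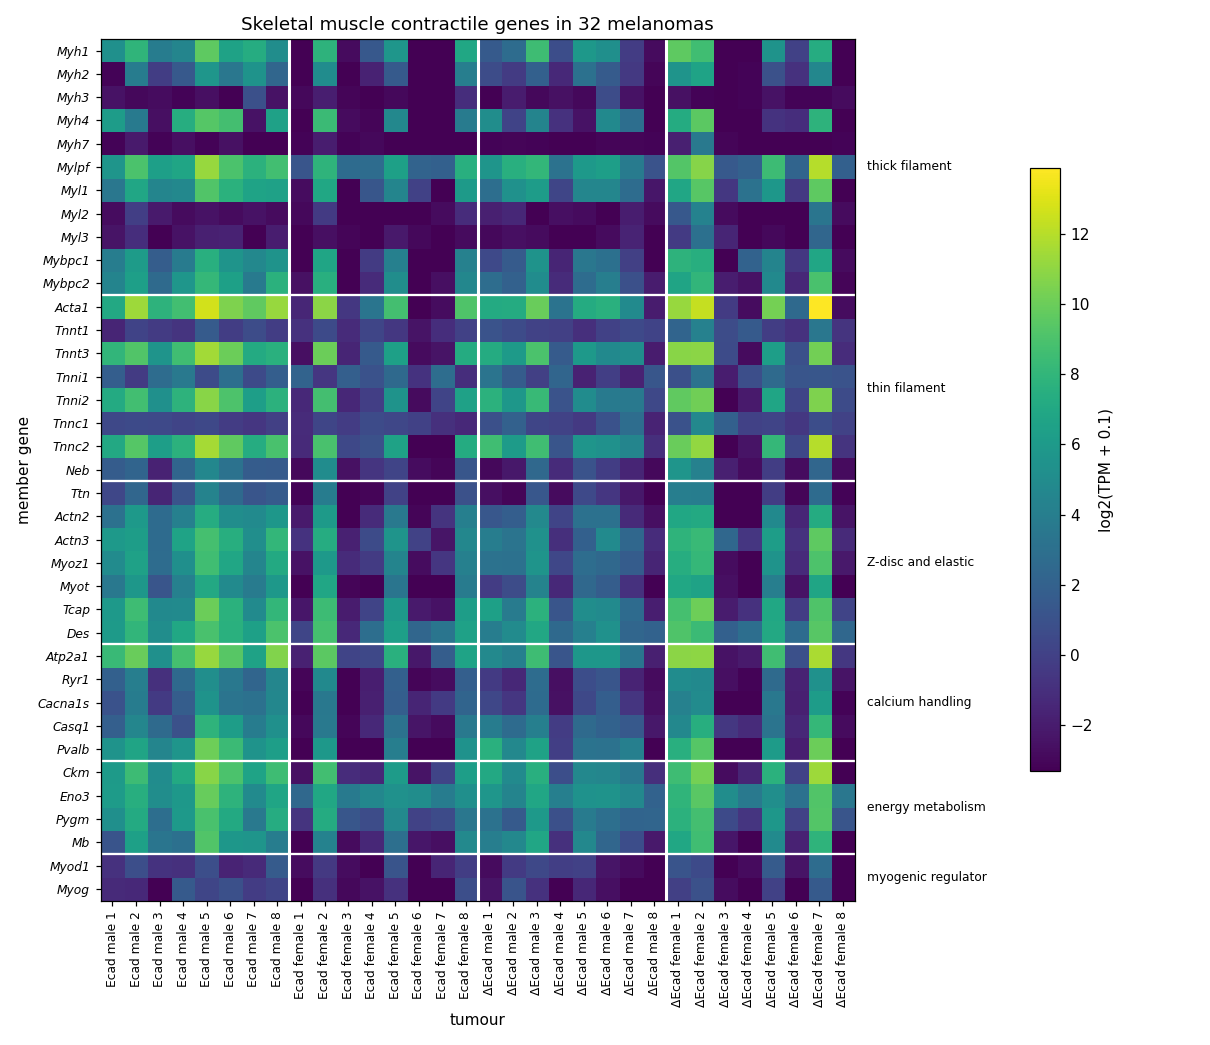
Level of each of the 37 genes (rows, ordered by role) in each of the 32 tumours (columns, ordered by group), as log2(TPM + 0.1). Most genes are bright or dark together in the same tumours, while Myh3, Myh7, Myl2 and Myl3 are dark in nearly every tumour.

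**Figure D2:**
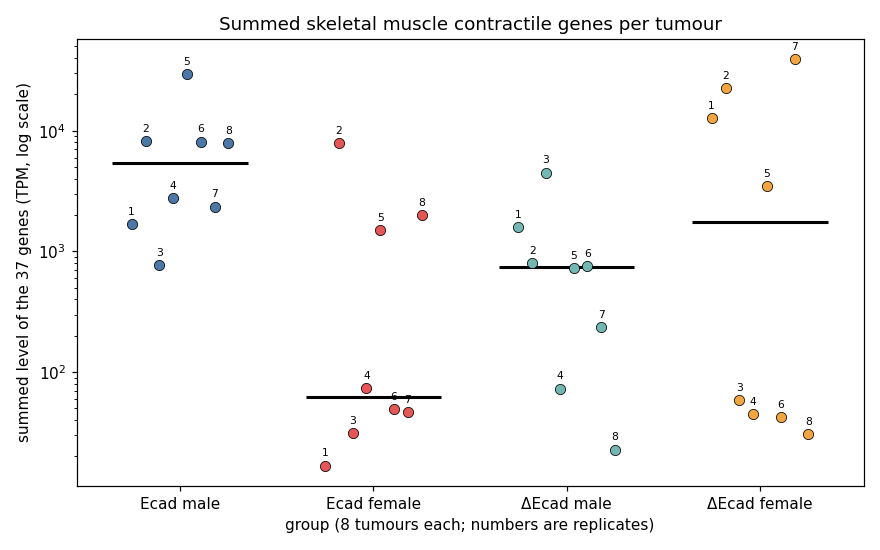
Summed level of the 37 genes in each tumour (points, numbered by replicate) by group, on a log scale in TPM, with black lines at the group medians of 5364, 61.6, 742 and 1768 TPM. Ecad males lie between 767.9 and 29638 TPM, and the lowest tumours of the other groups lie at 16.8, 22.8 and 30.6 TPM.

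A tumour was counted as holding skeletal muscle when all 6 defining fibre genes reached 1 TPM. These were Acta1, the skeletal alpha-actin, Ckm, the fast light chain Mylpf, the fast troponins Tnni2 and Tnnt3, and the calcium pump Atp2a1. All 8 Ecad male tumours met this, as did 3 of 8 Ecad females, 7 of 8 ΔEcad males and 4 of 8 ΔEcad females, or 22 of 32. Among them the lowest defining gene ranged from 1.68 TPM in ΔEcad male 4 to 1802 TPM in Ecad male 5. The count was 21 when 10 TPM was required, 26 at 0.1 TPM, and 23 when 5 of the 6 genes were enough. At 10 TPM 6 ΔEcad males were counted, and at 0.1 TPM 5 Ecad females, 8 ΔEcad males and 5 ΔEcad females. The rule parts some tumours of like level: ΔEcad male 4, counted, had a summed level of 73.1 TPM and Ecad female 4, not counted, 73.7 TPM. In these 22 tumours between 16 and 36 of the 37 genes reached 1 TPM.

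The same few tumours were highest for most members. ΔEcad female 7 held the highest value of 15 genes, ΔEcad female 2 of 8 and Ecad male 5 of 8, and for 18 genes these were the 3 highest tumours. The other 6 genes peaked in ΔEcad female 1 (3 genes), Ecad male 4 (2) and Ecad male 7 (1). The 3 tumours were singled out after their values were seen, and the counts are a description.

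Acta1 had the highest median over all tumours of any member, 173.0 TPM. Among Ecad tumours its median was 1177 TPM in males (lowest 134.5, highest 6618) and 5.41 TPM in females (lowest 0, highest 1880). Among ΔEcad tumours it was 150.3 TPM in males (0.15 to 1006) and 636.7 TPM in females (0.05 to 15087). The highest tumour of each group lay above the lowest tumour of each other group. Acta1 lies at chr8:123891769-123894751 on the minus strand of GRCm38. In the 22 tumours it supplied between 7.95% of the members' TPM, in Ecad male 1, and 38.5%, in ΔEcad female 7, with a median of 22.7%. Its ratio to the 5 summed myosin heavy chain genes, both in TPM, was 1.19 in Ecad male 1 and 36.3 in ΔEcad female 7. The measured levels of actin and myosin transcripts were thus not in 1 proportion. The longest Acta1 transcript has 1446 bases and that of Myh1 6081, and libraries also differed in their level of long transcripts, as given below.

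The heavy chain genes Myh3, Myh2, Myh1 and Myh4 lie in this order on chromosome 11, the first starting at 67078300 and the last ending at 67260446. Myh1 (IIX) had a median of 68.9 TPM in Ecad males (lowest 14.99, highest 777.2) and 1.27 TPM in Ecad females (0 to 226.5). Its ΔEcad median was 4.77 TPM in males (0.04 to 368.3) and 23.3 TPM in females (0 to 788.0). The heavy chain Myh4 of IIB fibres, the fastest type, was more uneven. It had a median of 81.9 TPM in Ecad males (0.06 to 648.8) and 0.03 TPM in Ecad females (0 to 343.8). Its ΔEcad median was 4.12 TPM in males (0 to 33.7) and 0.42 TPM in females (0 to 756.9). Both genes overlapped between all groups. Myh2 (IIA) stayed lower, with medians of 8.01 TPM in Ecad males (highest 53.6) and 0.11 TPM in Ecad females (highest 32.2). For ΔEcad, males had a median of 1.11 TPM (highest 8.34) and females of 1.16 TPM (highest 103.1).

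The mix of fast heavy chains changed from tumour to tumour within every group. Shares are given for the 24 tumours with at least 100 reads over the 5 heavy chain genes, with Wilson 95% intervals that cover counting error only. Myh1 led in 15 of them and Myh4 in 9. Myh1 led in 4 and Myh4 in 4 Ecad males, and in 3 and 1 Ecad females. The counts were 5 and 2 in ΔEcad males, and 3 and 2 in ΔEcad females. Myh4 made up 87.5% of the reads in ΔEcad male 1 (interval 86.3 to 88.6) and 86.0% in Ecad male 4 (85.5 to 86.6). It made up 0.0369% in Ecad male 7 (0.0169 to 0.0805) and 0.117% in ΔEcad male 5 (0.0535 to 0.254), and there Myh1 held 75.1% and 85.9%. The high and low Myh4 intervals do not overlap, so these libraries, picked for extreme shares, differed in their mix of fast heavy chain transcripts beyond counting error. Fibre type itself was not measured. Myh2 ranged from 0.0132% in Ecad male 1 to 28.6% in ΔEcad female 6, where only 126 heavy chain reads were counted, and it was 24.1% of 16251 reads in Ecad male 7. Between 3.85% and 9.73% of the 100-base stretches of Myh1, Myh2 and Myh4 also occur in another gene. Reads in those stretches could have been dropped or assigned to a neighbour.

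**Figure D3:**
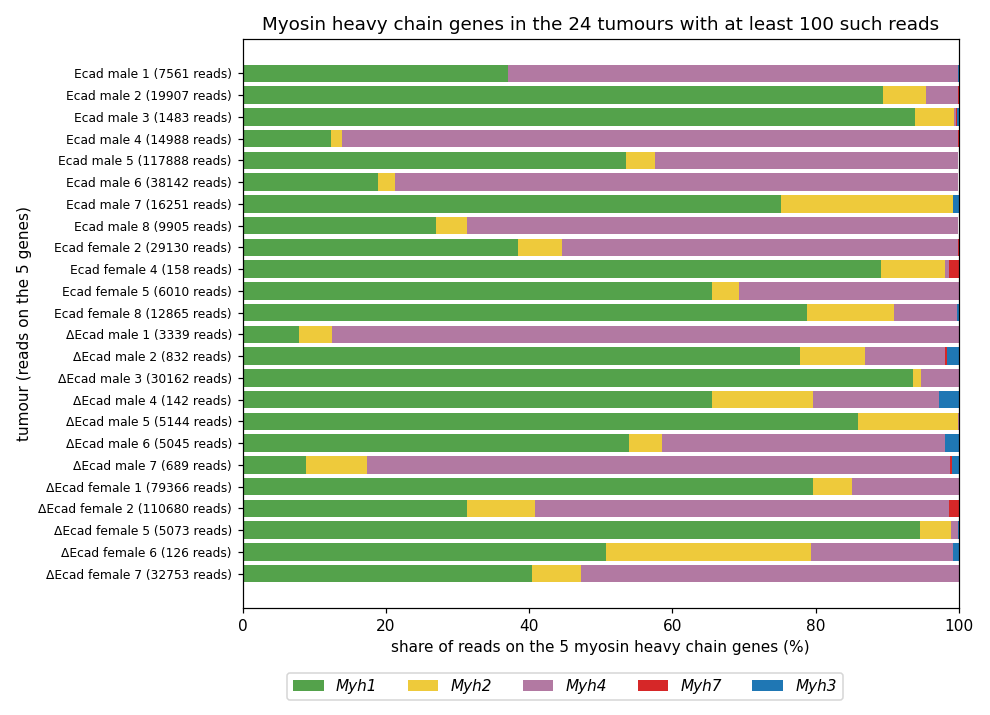
Share of reads (percent, horizontal axis) on Myh1, Myh2, Myh4, Myh7 and Myh3 in each of the 24 tumours with at least 100 reads on these genes (rows, with the number of reads). Green Myh1 or purple Myh4 fills most of every bar, red Myh7 is visible in ΔEcad female 2 at 1.33%, and Myh2 is widest in ΔEcad female 6 and Ecad male 7.

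The slow myosin genes Myh7, Myl2 and Myl3 were found in few tumours, whereas the slow troponin genes Tnni1, Tnnc1 and Tnnt1 reached 1 TPM in 23, 18 and 13 tumours. Myh7, the slow heavy chain, was 12.18 TPM in ΔEcad female 2, or 1.33% of its heavy chain reads (interval 1.27 to 1.40), and at most 0.18 TPM in each of the other 31 tumours. The slow light chains Myl2 and Myl3 were 19.92 and 8.09 TPM in the same tumour and 10 and 5.13 TPM in ΔEcad female 7, where Myh7 was listed at 0. ΔEcad female 1 had 2.52 TPM of Myl2, and no other tumour exceeded 0.80 TPM of Myl2 or 0.66 TPM of Myl3. Of the 7 pairs of fast and slow genes for the same part, the fast gene was higher in at least 6 in each of the 22 tumours. The ratio of summed fast to summed slow TPM in these tumours ran from 3.45 in ΔEcad male 4 to 2810 in Ecad male 5. Its slow sum covered Myh7, Myl2, Myl3, Tnnt1, Tnni1 and Tnnc1 but not Mybpc1, the slow gene of 1 pair. Mybpc1 was 183.2 TPM in Ecad male 5, beside a slow sum of 5.84 TPM, and 0.24 beside 6.72 TPM in ΔEcad male 4. The fast sum also held Actn3, Atp2a1 and Pvalb, which are in no pair. The size of the ratio thus depends on the genes summed. The slow summed level was highest in ΔEcad female 2 at 93.94 TPM, beside a fast summed level of 12151 TPM. Of the 6 genes that define these 22 tumours, Mylpf, Tnni2, Tnnt3 and Atp2a1 are themselves fast-fibre genes, so a tumour with slow fibres alone would not have been counted, and the ratio is a description. In the other 10 tumours the ratio lay between 0.727 and 4.49.

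Myh3, the embryonic heavy chain that is re-expressed when fibres regenerate, did not exceed 0.38 TPM in 30 tumours. It was 1.77 TPM in Ecad male 7 from 130 reads and 1.49 TPM in ΔEcad male 6 from 102 reads, where it made up 0.800% and 2.02% of the heavy chain reads. Its group medians were 0.055 TPM in Ecad males, 0.05 in ΔEcad males, 0.025 in Ecad females and 0.01 in ΔEcad females.

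Among the other thick filament genes, the fast regulatory light chain Mylpf was measured at 2.0 TPM or more in every tumour and reached 3936 TPM in ΔEcad female 7. The fast alkali light chain Myl1 reached 790.7 TPM, and the myosin-binding protein genes Mybpc1 and Mybpc2 reached 224.7 and 497.5 TPM. Mybpc1, named for slow fibres, was high in the same tumours as fast genes. Its 3 highest values were in ΔEcad female 1, Ecad male 5 and ΔEcad female 2, and its median over all tumours was 9.62 TPM against 9.94 for Mybpc2.

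The thin filament supplied the largest share of the members' TPM in each of the 22 tumours, from 32.3% to 57.1%. Besides Acta1 these were the fast troponin genes Tnnt3, Tnni2 and Tnnc2, with highest values of 2837, 1837 and 3909 TPM. The slow troponin genes covered a narrower range. Tnni1 ranged only from 0.16 to 12.4 TPM, with its highest value in Ecad male 4, and it was 7.09 TPM in Ecad female 7, a tumour in which Acta1 was 0.05 TPM. Tnnc1, shared by slow and cardiac fibres, stayed between 0.23 and 7.08 TPM except for 25.79 in ΔEcad female 2, and its second highest value was in ΔEcad male 7. Tnnt1 was between 0.09 and 4.57 TPM except for 11.42 in ΔEcad female 7 and 19.04 in ΔEcad female 2. Neb, the giant nebulin that lies along actin, was highest in ΔEcad female 1 at 49.09 TPM and next in Ecad female 2 at 32.58 TPM.

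The Z-disc and elastic genes supplied 7.31% to 16.5% of the members' TPM. Des encodes desmin, the intermediate filament that links Z-discs and is also made by smooth muscle. Des had a median of 158.8 TPM in Ecad males (33.9 to 523.4) and 8.88 TPM in Ecad females (0.30 to 447.0). With ΔEcad, the median was 16.7 TPM in males (4.22 to 124.6) and 71.1 TPM in females (3.82 to 693.5). Des reached 1 TPM in 31 tumours, more than the 21 to 24 tumours for the fibre-restricted Actn2, Actn3, Myoz1 and Tcap. Actn3, the fast alpha-actinin, reached 801.8 TPM and Actn2 reached 159.1 TPM. Ttn, which encodes the elastic protein titin, reached 20.85 TPM in Ecad male 5, and Myot, myotilin, reached 136.1 TPM in the same tumour.

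The balance of very long and short members was uneven between tumours. Per 1000 TPM of Tnnc2, Tnni2 and Mylpf, the summed TPM of Neb and Ttn was 0.139 in ΔEcad male 1 and 0.457 in ΔEcad male 2, against 40.6 in Ecad female 2 and 26.7 in ΔEcad female 1. Over all other genes, the median log2 level of 1827 genes of at least 8000 bases minus that of 1372 genes under 1500 bases, each centred on its median over tumours, was lowest in the same tumours at -1.63 and -0.97. It was 0.53 in Ecad female 2 and 0.11 in ΔEcad female 1. These library-wide values moved with the low level of the long muscle transcripts in ΔEcad males 1 and 2, and their part in it was not tested. The library-wide value was -0.63 in ΔEcad female 7 and -0.17 in Ecad male 1, where the ratio of Acta1 to heavy chains was 36.3 and 1.19. It was -0.17 in ΔEcad female 5 at a ratio of 26.3, and ΔEcad male 1 had a ratio of 3.86. The part of transcript length in that ratio was not tested.

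Calcium-handling genes supplied 5.38% to 22.7% of the members' TPM. Atp2a1, the pump SERCA1 of fast fibres, led with a highest value of 3350 TPM. Pvalb, the calcium buffer parvalbumin of fast fibres, reached 1104 TPM and had a median of 0 TPM in Ecad females. The release channel Ryr1, its voltage sensor Cacna1s and the store protein Casq1 reached 41.9, 71.8 and 277.7 TPM, all 3 in ΔEcad female 7. Among the energy genes, Ckm, which regenerates ATP from phosphocreatine, had a median of 249.9 TPM in Ecad males (32.98 to 1802) and 0.695 TPM in Ecad females (0.07 to 411.9). With ΔEcad, it was 24.7 TPM in males (0.41 to 184.1) and 100.3 TPM in females (0 to 2619). All groups overlapped for Ckm. Pygm, the muscle glycogen phosphorylase, reached 615.8 TPM and Mb, the oxygen-binding myoglobin, reached 594.5. Eno3, the muscle enolase, was present at 4.08 TPM or more in every tumour, including those in which Ckm was near 0.

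The myogenic transcription factors were low. Myod1, which commits cells to the muscle lineage, had a median of 0.46 TPM in Ecad males (0.23 to 2.96) and 0.145 TPM in Ecad females (0 to 2.08). With ΔEcad, males had 0.385 TPM (0 to 1.20) and females 0.715 TPM (0 to 6.78). Myog encodes myogenin, which drives the terminal differentiation of muscle cells. Its median was 0.90 TPM in Ecad males (0 to 2.83) and 0.055 TPM in Ecad females (0 to 1.66). With ΔEcad, it was 0.075 TPM in males (0 to 2.15) and 0.45 TPM in females (0 to 2.80), so both factors overlapped between all groups. Myf6, the family member typical of mature fibres and not one of the 37, reached 22.87 TPM in Ecad female 2 and 22.81 in ΔEcad female 7. Markers of satellite cells and of new fibres were mixed. Pax7 and Myf5, factors of satellite cells, were at most 0.13 and 0.15 TPM, the perinatal heavy chain Myh8 at most 0.41 and Chrng, the fetal acetylcholine receptor subunit, at most 0.14 TPM. Cdh15, the M-cadherin of satellite cells, reached 8.09 TPM in Ecad female 2 and 1 TPM in 9 tumours, Msc reached 5.18 TPM in ΔEcad male 2, and Mstn, the muscle growth inhibitor myostatin, reached 20.8 TPM in ΔEcad female 7.

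Further muscle genes in 5 lists followed the members to different degrees. Of 24 other sarcomere and Z-disc genes, 17 had their highest value in ΔEcad female 7, Ecad male 5 or ΔEcad female 2, and Nrap, Lmod2 and Trim63 reached 183.9, 160.0 and 131.7 TPM in ΔEcad female 1. Of 14 other genes of excitation-contraction coupling, 11 peaked in one of these 3 tumours, and Jsrp1, Hrc and Srl reached 163.4, 85.7 and 83.8 TPM. Of 12 muscle energy enzymes, 8 did so. Cox8b, a cytochrome c oxidase subunit of muscle and brown fat, instead reached 2251 TPM in ΔEcad male 5, and Pgam2 and Cox6a2 reached 514.6 and 425.3 TPM. Only 1 of 8 neuromuscular junction genes peaked in these tumours. Rapsn was highest in ΔEcad male 2 at 86.4 TPM, Chrna1, the acetylcholine receptor alpha subunit, in ΔEcad male 7 at 77.95 TPM, and Dok7 in ΔEcad female 8 at 68.7 TPM, a tumour with 30.6 TPM over the 37 members. Of 12 satellite cell and regeneration genes, 4 peaked there and 5 stayed under 1 TPM in every tumour, and the highest levels were those of Ankrd2 (139.0 TPM), Ankrd1 (40.3) and Myf6.

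Other muscle types were checked through their defining genes. The cardiac genes Myh6 and Nppa were at most 0.16 and 0.15 TPM in every tumour, but others of the cardiac list were measured. Tnni3 reached 15.01 TPM in ΔEcad male 7 and 1 TPM in 19 tumours. Myl4 reached 1 TPM in 29 tumours, and Tnnt2 and Actc1 had highest values of 5.79 and 3.28 TPM. The summed level of 10 cardiac genes ranged from 4.3 to 169.0 TPM, and in the highest, Ecad female 4, Nppb contributed 165.2 TPM while the members summed to 73.7 TPM. The summed smooth muscle genes ranged from 72.6 to 525.9 TPM in 31 tumours and were 5655 TPM in ΔEcad female 3, in which the 37 members summed to 58.2 TPM. Acta2 and Tagln supplied most of that sum, at 3978 and 1526 TPM. Cnn1 and Lmod1 also had their highest values in this tumour, 45.65 and 21.0 TPM, but Myh11 was 0.11 TPM and Kcnmb1 0.02 TPM. The high sum thus rested on part of the list, in a tumour with little skeletal muscle.

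Genes of other tissues of the skin were compared with the members tumour by tumour. The 10 keratinocyte genes summed to a median of 4877 TPM in Ecad males (1.4 to 23602) and 1.8 TPM in Ecad females (0.2 to 1750). With ΔEcad, the median was 447.8 TPM in males (1.6 to 15257) and 6450 TPM in females (1.7 to 38595). ΔEcad female 2 had the highest keratinocyte sum and the third highest muscle sum, but several tumours went apart. Ecad female 2 held 7949 TPM of muscle genes with 2.4 TPM of keratinocyte genes, ΔEcad female 5 held 3478 with 9.0, Ecad male 7 held 2352 with 1.4 and Ecad female 8 held 1986 with 1.3. The reverse was seen in ΔEcad females 6 and 8, with 6864 and 6035 TPM of keratinocyte genes and 42.3 and 30.6 TPM of muscle genes. Adipocyte genes summed to 6891 TPM in ΔEcad female 7 and 4798 in Ecad male 5, the highest values of the series and the tumours with the most muscle. Here too some tumours went apart. Ecad male 1 held 3236 TPM of adipocyte genes with 1693 TPM of muscle genes. Ecad female 2, ΔEcad female 5 and Ecad male 7, with more muscle, held 172.8, 171.2 and 81.9 TPM of adipocyte genes. The adipocyte medians were 1111 TPM in Ecad males and 357.8 in ΔEcad males, against 86.0 in Ecad females and 345.2 in ΔEcad females. The part of these tissues in the differences between groups was not tested.

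**Figure D4:**
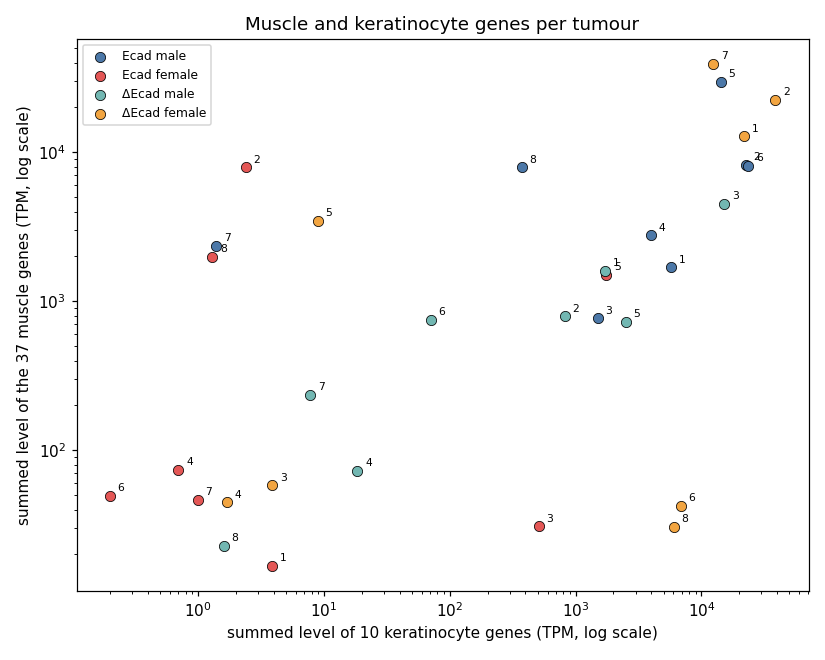
Summed level of 10 keratinocyte genes (horizontal) against the summed level of the 37 muscle genes (vertical) in each tumour, both in TPM on log scales, coloured by group and numbered by replicate. Tumours with muscle but almost no keratinocyte genes lie at upper left (Ecad female 2, ΔEcad female 5, Ecad male 7, Ecad female 8), and ΔEcad females 6 and 8 lie at lower right.

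The study asked how loss of E-cadherin alters melanomas of each sex, so the members were tested for genotype within each sex, for sex within each genotype, and for the difference between the genotype effects. A gene was called when its adjusted p was under 0.05 and its log2 fold change exceeded 1 in size, with edgeR's quasi-likelihood test over the 17717 genes that passed the count filter and Benjamini-Hochberg adjustment. Of the 37 members 33 passed, and Myh3, Myh7, Myl2 and Myl3 did not because few tumours had counts. Myh7 thus has no fold change in the comparisons that follow, since 26 of 32 tumours had 3 reads or fewer. The comparisons share tumours, so their values are not independent. Most members also rose and fell together from tumour to tumour, so counts of members below are not counts of independent results. The labels do not say whether the tumours of a group came from separate mice, and p-values measure only the spread between these samples.

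In males, ΔEcad tumours had lower estimates than Ecad tumours for 31 of the 33 members, but none passed the test. The median log2 fold change was -2.43, beside 0.11 over all genes tested. edgeR, DESeq2 and limma voom called 0 members each, and they called 0%, 0.119% and 0% of all genes. At an unadjusted p under 0.05, 7 members were lower, against 3.05% of all genes. Acta1 had a log2 fold change of -2.87 with an SE of 1.78 (edgeR adjusted p = 0.568), Myh4 of -3.31 ± 2.09 (adjusted p = 0.572) and Des of -2.67 ± 1.16 (adjusted p = 0.453). The smallest edgeR adjusted p was 0.444, for Pygm. Tnnc1 and Tnnt1 were the members with estimates above 0, at 1.36 and 0.56. Without ΔEcad male 2, and without ΔEcad male 7, again 0 members were called. The median was -3.06 without ΔEcad male 3, -1.66 without Ecad male 5 and -3.15 with limma voom.

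In females, all 33 estimates were above 0, with a median of 2.45 beside -0.02 over all genes. edgeR called 1 member, Tnnt1, the slow troponin T gene at chr7:4504570-4516382 on the minus strand, against 1.20% of all genes called. Tnnt1 had a lowest, median and highest level of 0.09, 0.525 and 1.34 TPM in Ecad females and 0.44, 2.18 and 19.04 in ΔEcad females, so the groups overlapped. On the log2 scale the difference was 3.05 with an SE of 0.72 (edgeR adjusted p = 0.0394). The call was lost in 10 of 32 fits that left out 1 tumour, with log2 differences of 2.44 to 3.23 over all 32 fits and adjusted p up to 0.116. These were the fits without Ecad female 1, 2, 3, 4, 6, 7 or 8 and without ΔEcad female 1, 2 or 7, and it was also lost without ΔEcad male 2 and ΔEcad female 1 together (3.10, edgeR adjusted p = 0.0751), with the replicate number as a block (2.49, adjusted p = 0.129), and with only the female tumours in the fit (3.09, adjusted p = 0.178). With a minimum count of 50, Tnnt1 did not pass the filter and was not tested.

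DESeq2 called 7 members in females, all higher (Tnnt1, Tnnc1, Mylpf, Casq1, Eno3, Myoz1 and Pygm), against 7.23% of all genes, and limma voom called 0 against 0.00564%. By edgeR, 12 members were higher at an unadjusted p under 0.05, against 11.2% of all genes. Acta1 had a log2 fold change of 3.33 ± 1.82 (edgeR adjusted p = 0.401), Myh4 of 1.77 ± 1.96 (adjusted p = 0.756) and Des of 1.64 ± 1.12 (adjusted p = 0.543). The Acta1 estimate was 1.88 without ΔEcad female 7 and 4.45 without Ecad female 2, and the median over members was 1.85 and 3.77 in these fits. The Myh4 estimate was 0.51 without ΔEcad female 2 and 4.58 without Ecad female 2.

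Within Ecad tumours, females had lower estimates than males for all 33 members, with a median of -2.06 beside 0.05 over all genes. edgeR called 0 members and 0.0508% of all genes. DESeq2 called 1, Eno3, against 5.77%, and limma voom called 0 against 0.519%. By edgeR, 6 members were lower at an unadjusted p under 0.05, against 10.3% of all genes. Acta1 differed by -2.39 ± 1.75 (log2, SE, edgeR adjusted p = 0.522), Myh4 by -2.01 ± 1.98 (adjusted p = 0.652) and Des by -1.58 ± 1.11 (adjusted p = 0.505). Without Ecad female 3, edgeR again called 0 members. The median was -3.40 without Ecad female 2 and -1.41 without Ecad male 5, where 1 estimate was above 0, and the Myh4 difference was -4.82 and -1.39 in these fits. With limma voom the median was -4.91 and with the replicate block -3.56.

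Within ΔEcad tumours, females had higher estimates for 32 of 33 members, with a median of 2.96 beside -0.06 over all genes, and Tnni1 was the exception at -0.42. edgeR, DESeq2 and limma voom called 0 members, and 0.0395%, 0.135% and 0.0339% of all genes. By edgeR, 15 members were higher at an unadjusted p under 0.05, against 3.32% of all genes. Acta1 differed by 3.81 ± 1.86 (log2, SE, edgeR adjusted p = 0.565), Myh4 by 3.06 ± 2.06 (adjusted p = 0.674) and Des by 2.73 ± 1.16 (adjusted p = 0.539). Without ΔEcad male 2, and without ΔEcad female 1, 0 members were called again. The median was 2.05 without ΔEcad female 7, 1.41 with the replicate block and 0.94 with limma voom, where 2 estimates were below 0.

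The genotype effect was also compared between the sexes. All 33 estimates of female minus male effect were above 0, with a median of 4.80 beside -0.16 over all genes. The median over all genes was -0.09 with relative log expression size factors and -0.05 with upper quartile factors. edgeR and limma voom called 0 members and 0% of all genes each, and the smallest edgeR adjusted p was 0.0587, for Eno3. DESeq2 called 12, all higher, against 6.91% of all genes, and these included Acta1, Ckm, Des and Atp2a1. By edgeR, 21 members were higher at an unadjusted p under 0.05, against 10.7% of all genes. Acta1 had an estimate of 6.20 ± 2.55 (log2, SE, edgeR adjusted p = 0.186), Myh4 of 5.08 ± 2.86 (adjusted p = 0.358) and Des of 4.31 ± 1.61 (adjusted p = 0.144). edgeR called 4 members (Eno3, Mylpf, Myoz1 and Pygm) when ΔEcad male 3, ΔEcad female 3 or ΔEcad female 4 was left out, and 1 (Eno3) without Ecad male 3, Ecad male 7, Ecad female 5, ΔEcad female 5 or ΔEcad female 8. The median was 6.32 without Ecad female 2 and 4.17 without Ecad male 5. edgeR called 0 members without ΔEcad male 2 and ΔEcad female 1 together, and 0 without ΔEcad male 7 or without Ecad female 3.

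**Figure D5:**
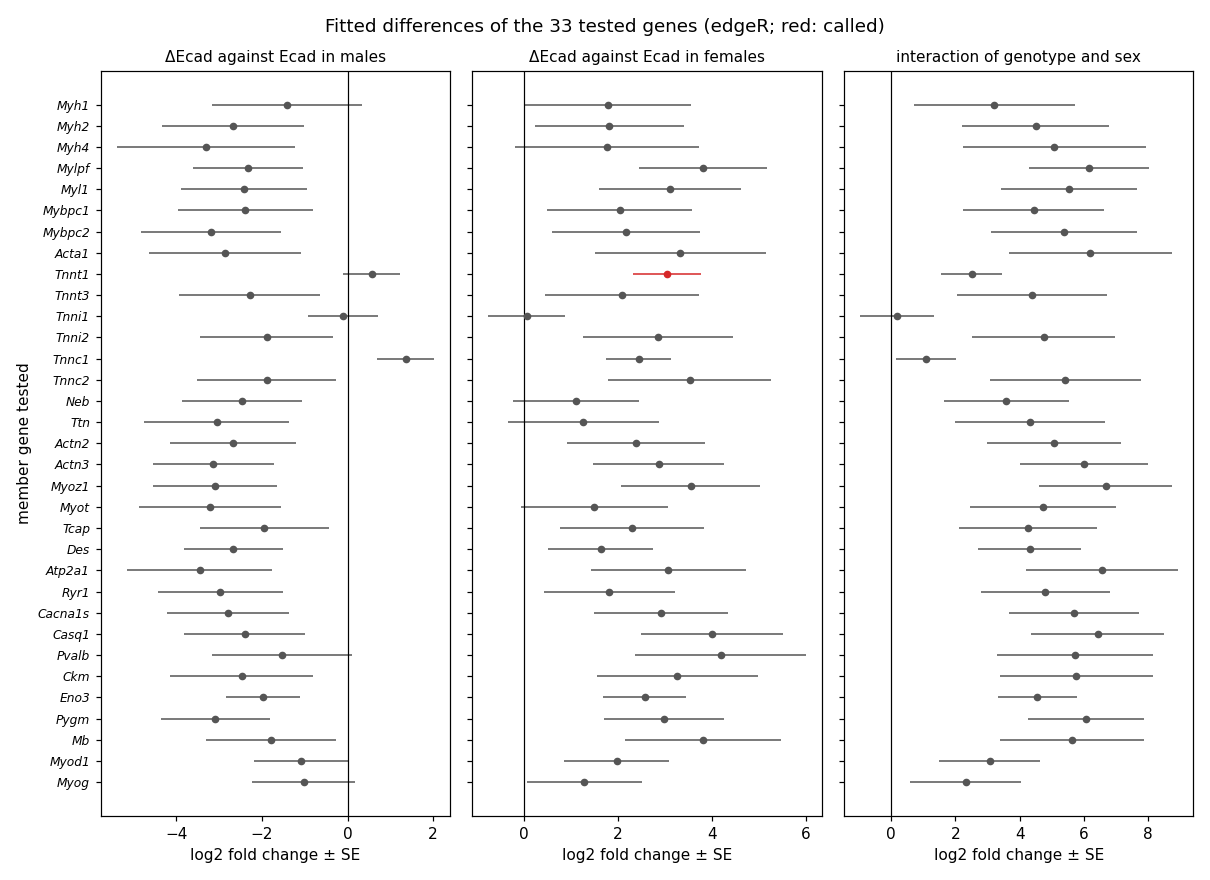
Fitted log2 fold change with its SE (horizontal) of the 33 tested genes (rows) for ΔEcad against Ecad in males, the same in females, and the difference between these effects, from edgeR. Most points lie below 0 in males and all lie above 0 in females, the error bars are wide, and only Tnnt1 in females is drawn in red as called.

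Of the 70 further muscle genes 63 were tested, and edgeR called 0 in each of the 5 comparisons, with a smallest adjusted p of 0.0607 in the difference between the sexes. Their median log2 fold changes were -2.39 for genotype in males and 1.97 in females, -1.74 for sex in Ecad, 2.48 for sex in ΔEcad and 4.29 for the difference. The neuromuscular junction genes stood apart, with medians of 0.36 in males and -0.08 in females.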

How the data were processed

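Total RNA with an RNA integrity number over 7 from 32 melanomas was sequenced from polyA libraries (TruSeq Stranded, paired 100-base reads). The authors mapped reads with STAR to GRCm38.p5 (mm10, GENCODE M13), checked them with FastQC 0.11.5 per the labels, and deposited raw read counts per gene and TPM values. The study mentions ComBat where applicable, and to which table it was applied is not given in the sources used here, nor is it stated that counting used strand. No covariate was applied here. Total counts ranged from 24036333 to 63923086, and intervals on shares cover counting error only.

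The 37 members and all gene lists were chosen with earlier results of these data known. Members were matched by symbol. TPM values served for levels. Counts of all 32 tumours entered 1 model with a coefficient per group (edgeR 4.0.16, R 4.3.3), with filterByExpr, TMM and robust quasi-likelihood tests. A call required a log2 fold change beyond 1 in either direction and an adjusted p below 0.05. DESeq2 1.42.0 and limma 3.58.1 (voom), other size factors, other filters, the replicate block, fits of only the tumours compared and leaving out each tumour were alternatives. The edgeR script was tested on simulated data. No 2 tumours were duplicates, since the closest pair differed in the counts of 24566 genes.

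Group values are given for Acta1, Ckm, Myh1, Myh2, Myh3, Myh4, Myh7, Des, Myod1, Myog and further members by role. Fold changes are given for Acta1, Myh4 and Des, and for up to 3 called members in each direction. Up to 3 genes of each further muscle list with the highest level are named. Other genes named were picked after their values were seen. The length comparison used log2(TPM + 1) of genes with a mean of at least 5 TPM. Wilson intervals came from statsmodels 0.14.6 and figures from matplotlib 3.10.9.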

Additional observations from a re-analysis of the deposited data

Results flagged for a closer look

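Within the groups of 8 tumours, the level of each of the 37 genes and the summed level were checked for a tumour far from the other 7, on the log2(TPM + 0.1) scale. A tumour was listed when its gap to its nearest neighbour as a part of the group's whole range exceeded Dixon's 95% critical value for 8 samples. This held in 8 of 152 groups of values, and chance gives about 1 in 20, or 7.6.

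The embryonic heavy chain Myh3 was 1.77 TPM in Ecad male 7, against 0 to 0.08 TPM in the other Ecad males, and 1.49 TPM in ΔEcad male 6, against 0 to 0.15 TPM. The slow heavy chain Myh7 was 12.18 TPM in ΔEcad female 2, against 0 to 0.18 TPM, and 0.16 TPM in Ecad female 2, against 0 to 0.03 TPM. The slow troponin C gene Tnnc1 was 25.79 TPM in ΔEcad female 2, against 0.59 to 3.71 TPM. The slow light chain Myl2 was 0.80 TPM in Ecad male 2, against 0.04 to 0.14 TPM, and Myl3 was 0.23 TPM in ΔEcad male 7, against 0 to 0.06 TPM. The slow troponin I gene Tnni1 was low in ΔEcad female 3 at 0.16 TPM, against 1.63 to 8.92 TPM in the other ΔEcad females. This last tumour had the highest sums of the smooth muscle and fibroblast gene lists in the series. The part of these genes in the value was not tested.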

How the results depend on the processing

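The 5 counts of called members and the fold changes of Acta1, Myh4 and Des were recomputed under each alternative. In males and for sex in ΔEcad, 0 members were called under every alternative run. For genotype in females, the count of 1 became 2 with upper quartile size factors (adding Tnnc1) and with no filter on low counts (adding Myl3), 7 with DESeq2, and 0 with a minimum count of 50 (Tnnt1 was then not tested), with limma voom and with only the tumours compared. It was also 0 without both tumours whose Y-linked counts departed from their label, an alternative chosen after seeing the data, and it ranged from 0 to 2 when single tumours were left out, with 2 without Ecad female 5, ΔEcad male 7 or ΔEcad female 4, 5 or 8. For sex in Ecad, DESeq2 called 1. For the difference between the sexes, the count of 0 became 1 with no filter (Myl3) and 12 with DESeq2, and ranged from 0 to 4 over single tumours left out. The cause of these changes was not tested, apart from the fewer genes or tumours that some alternatives use by construction.

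No fold change of Acta1, Myh4 or Des changed sign. Only DESeq2 brought any past the threshold, for the difference between the sexes, with Acta1 at 6.32 (DESeq2 adjusted p = 0.0452) and Des at 4.40 (adjusted p = 0.0288). The number of tumours holding muscle was 21 at 10 TPM, 26 at 0.1 TPM, 23 with 5 of 6 genes and 23 at 10 counts. Myh7 did not pass the filter, so its planned fold changes exist only without a filter, where they were 6.06 ± 1.67 in females (SE, edgeR adjusted p = 0.0534) and 7.51 ± 2.22 for the difference between the sexes (adjusted p = 0.067). These rest on 1473 reads in ΔEcad female 2, with at most 19 in any other tumour, and are no bound.

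The replicate numbers did not pair the tumours. Deviations of same-numbered tumours from their group means correlated between -0.547 and 0.423, and 1 tumour was closest to its own number. With the replicate number as a block, 0 members were called in each of the 5 comparisons. Over all alternatives the members' median ranged from -3.15 to -1.66 for genotype in males, 1.85 to 3.77 in females, -4.91 to -1.41 for sex in Ecad, 0.94 to 3.36 for sex in ΔEcad and 4.17 to 6.32 for the difference.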
